A study of Homo sapiens with 24 samples.

Results

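The receptors described here are the 2 bradykinin receptors (BDKRB1, BDKRB2), the 3 galanin receptors (GALR1, GALR2, GALR3) and the 2 cholecystokinin receptors (CCKAR, CCKBR). They were found by matching the RefSeq accession that the array design gives each probe to these 7 genes, out of 21743 genes that could be named on the array. Each receptor had 1 probe, printed as 1 spot. The set was chosen by measured values: BDKRB2 and GALR1 were selected on their differences between rotenone and vehicle aggregates, as known from earlier results of these data, and the other 5 as their relatives. Differences between rotenone and DMSO, and every comparison that uses the 100 nM arrays, are therefore given for all 7 receptors as a description without a test. For BDKRB2 and GALR1 the same holds of the differences between the days, one side of which is the day 8 values that led to their choice.

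LUHMES cells, a human midbrain line conditionally immortalized with a tetracycline-controlled v-myc gene, were differentiated as shaken 3D aggregates in medium with cAMP, GDNF, tetracycline and N2. From day 7 of differentiation they received rotenone, an inhibitor of mitochondrial complex I, at 50 nM for 12 h, at 50 nM for 24 h or at 100 nM for 24 h, or DMSO diluted to match 100 nM. Samples labelled day 8 were collected directly after exposure, and samples labelled day 15 after wash-out and 7 days of recovery. With 8 groups of 3 samples and 1 one-colour Agilent array per sample, 24 arrays were measured. The model is 1 cell line, and the labels do not say whether the 3 samples of a group were separate cultures, so p-values measure the spread between these samples, which may be technical.

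All 7 receptors are G protein-coupled. The B2 receptor, encoded by BDKRB2, is the receptor for intact bradykinin and is usually present without injury, whereas the B1 receptor, encoded by BDKRB1, prefers kinins that have lost their C-terminal arginine and is known for its induction in inflammation. Galanin receptors 1 and 3 couple mainly to inhibitory G proteins and galanin receptor 2 also to the phospholipase C route. CCKAR and CCKBR bind cholecystokinin, which is found together with dopamine in some midbrain neurons, and CCKBR also binds gastrin.

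Values are log2 signals after background correction, quantile scaling and correction of a slide effect. Their size depends on the probe, so levels are compared between groups and not between receptors. A spot is called well above background as the scanner software marked it. The marks divided the receptors: BDKRB1, BDKRB2, GALR1 and GALR3 were marked on 24 of 24 arrays, GALR2 on 16, CCKBR on 14 and CCKAR on 1. No receptor spot was saturated. CCKAR failed the filter on dim spots, so 6 of the 7 receptors entered the fit across 21239 genes. In that fit a gene was called where its fold change was above 1.5 and its Benjamini-Hochberg adjusted p was below 0.05.

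**Figure D1:**
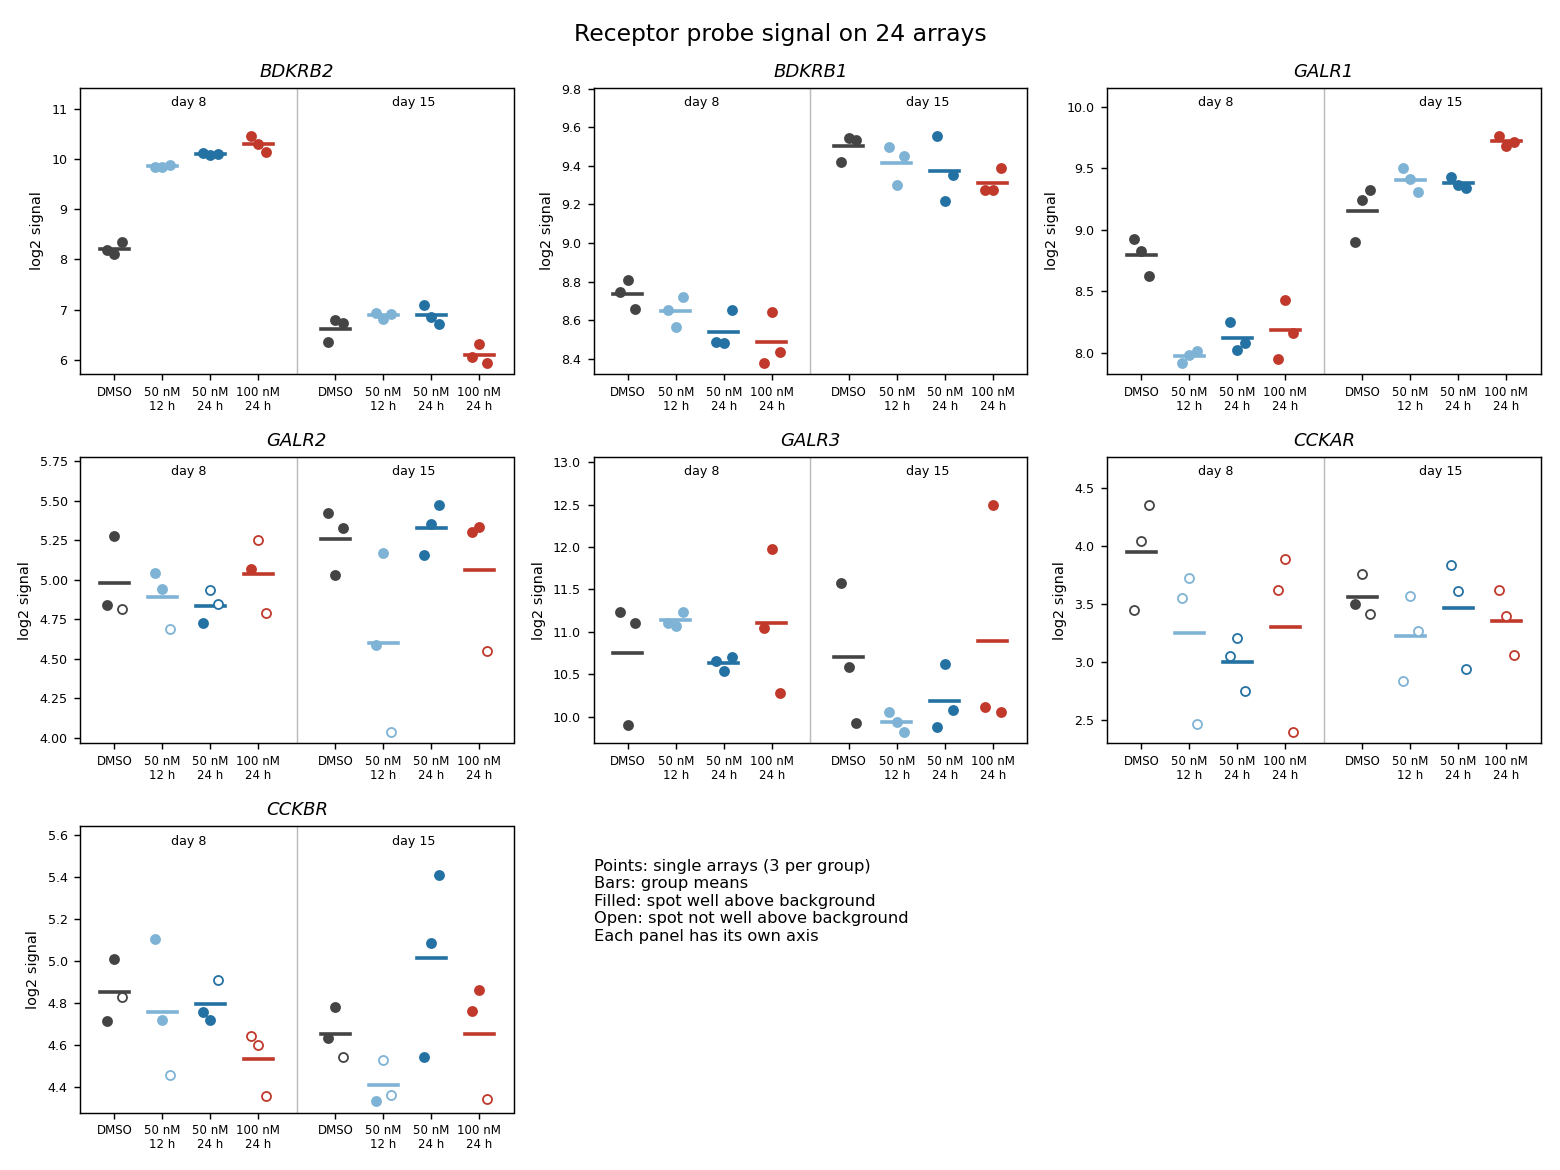
Log2 signal (vertical axes, one scale per receptor) of the 7 receptor probes on each of the 24 arrays, by group (horizontal axes). Points are single arrays, filled where the spot was well above background, and bars are means of 3 arrays; BDKRB2 lies highest in the 3 rotenone groups of day 8 and GALR1 lowest there.

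Replicate 1 of every group lay on slide 1, which the study had repeated and which was processed apart from the others. Between 67.3 and 82.4% of its spots were well above background, against 50.9 to 62.4% on slides 2 and 3. All 5 neuron markers were well above background on all arrays, as were 6 of 7 dopaminergic markers, the vesicular transporter SLC18A2 being so on 3 arrays. Of 4 astrocyte markers GFAP was so on 1 array, AQP4 on 8, SLC1A3 on 9 and ALDH1L1 on 10. Of 5 proliferation and progenitor markers NES and CCNB1 were so on 24 arrays, MKI67 on 15, TOP2A on 11 and SOX2 on none. Of 3 measured microglial markers none was so on all arrays. The 2 measured oligodendrocyte markers, MBP and MOG, were so on 24 arrays. Of 3 endothelial markers VWF was so on 23 arrays, CDH5 on 20 and PECAM1 on 1. For day 15 DMSO replicate 1, the scan name carries another group's label, and its group rests on its title. The 7 receptors' group differences that use it and are given, and those of GAL and CCK between the days, are also given without it. The differences between the days flagged at the end are not.

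BDKRB2 had the widest range of the 7 receptors over the 8 groups. On day 8 its log2 signal was 8.19, 8.11 and 8.34 in the 3 DMSO samples. With 50 nM it was 9.84, 9.85 and 9.89 after 12 h and 10.11, 10.07 and 10.10 after 24 h. With 100 nM for 24 h it was 10.45, 10.30 and 10.13. All 9 rotenone samples of day 8 were thus above all 3 DMSO samples, and the 3 rotenone groups did not overlap with each other. Before the slide correction the 100 nM group, down to 10.09, overlapped with the 50 nM 24 h group, up to 10.16. Within the slides 100 nM exceeded 50 nM for 24 h by 0.34, 0.22 and 0.02. The difference from DMSO was 1.64 after 50 nM for 12 h (3.12-fold), 1.88 after 50 nM for 24 h (3.68-fold) and 2.08 after 100 nM for 24 h (4.22-fold), each with a standard error of 0.124. Within the slides, before the slide correction, the 100 nM difference was 2.26, 2.19 and 1.76.

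Among all 21239 genes, 3.45% were called with 100 nM on day 8, 2.8% with 50 nM for 24 h and 1.75% with 50 nM for 12 h. The arrays of the 100 nM and DMSO groups did not overlap for 4 of the 6 fitted receptors, against 28.5% of all genes. These were BDKRB1, BDKRB2, GALR1 and CCKBR, of which only BDKRB2 had the higher values in rotenone. BDKRB2 and GALR1 were selected on differences from DMSO, so this count was partly fixed by the choice. Before the slide correction, the samples of BDKRB1 and of CCKBR overlapped between the 2 groups. In a bulk sample, a change in the number of cells of a type and a change in RNA per cell cannot be told apart. Markers of fibroblasts and smooth muscle, cells in which the B2 receptor is abundant, were summed as signals and given as log2. The sum of 5 such markers ranged from 9.68 to 10.04 in day 8 DMSO and from 9.39 to 10.19 in the 100 nM samples. DES, with the highest signal of these, differed by -0.047 with 100 nM. COL1A1 was higher by 0.285, COL1A2 by 0.324, ACTA2 by 0.241 and TAGLN by 0.081, and none of the 5 was called. The sum of 3 endothelial markers ranged from 6.19 to 6.65 in day 8 DMSO and from 6.27 to 6.54 with 100 nM. For 5 proliferation and progenitor markers the sum ranged from 10.61 to 10.90 in DMSO and from 11.11 to 11.28 with 100 nM. NES, with group means of 10.45 or above, made up most of it. The next highest, CCNB1, had group means of 7.53 or below. None of the 5 was called. Of these, NES was higher by 0.59 and SOX2 by 0.04, whereas MKI67 differed by -0.48, TOP2A by -0.76 and CCNB1 by -0.26. Their part in the BDKRB2 difference was not tested.

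By day 15 BDKRB2 was low in every group. The DMSO samples had log2 signals of 6.35, 6.80 and 6.73. After recovery from 50 nM, values were 6.93, 6.82 and 6.91 in the 12 h group and 7.09, 6.86 and 6.72 in the 24 h group. After recovery from 100 nM they were 6.05, 6.31 and 5.94, all 3 below every other day 15 sample. The difference from DMSO on day 15 was -0.52 for 100 nM, where the day 8 difference had been positive, and 0.26 and 0.27 for 50 nM over 12 h and 24 h. Without DMSO replicate 1, the lowest of its group, these became -0.66, 0.12 and 0.13. The 100 nM difference was smaller with scaling to the 75th percentile (-0.25) and with the processed signal (-0.28). At 50 nM for 24 h the excess over DMSO was 0.75 on slide 1, 0.05 on slide 2 and -0.03 on slide 3.

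Between day 8 and day 15 BDKRB2 went down in all 4 treatments, and the samples of the days did not overlap. The difference was -3.20 in the 50 nM 24 h group (9.2-fold, SE 0.124) and -2.97 in the 50 nM 12 h group (7.84-fold). In DMSO it was -1.59, or -1.45 without replicate 1 of day 15, and with 100 nM it was -4.19. The day 8 level after 24 h at 50 nM was 0.24 above that after 12 h (SE 0.124), and the 3 samples of one group lay above the 3 of the other. This difference was not tested.

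BDKRB1, which neighbours BDKRB2 on chromosome 14, went the other way between the days. In DMSO its log2 signal was 8.75, 8.81 and 8.66 on day 8 and 9.42, 9.54 and 9.54 on day 15. It rose by 0.76 (1.7-fold, SE 0.096, adjusted p = 8.1e-06), and by 0.80 when DMSO day 15 replicate 1 was left out (adjusted p = 3.6e-05). It rose by 0.83 in the 50 nM 24 h group (1.78-fold, adjusted p = 2e-06) and by 0.77 in the 50 nM 12 h group (1.7-fold, adjusted p = 5.8e-06). All 12 day 15 samples were above all 12 day 8 samples, from 9.22 upwards against at most 8.81. In each day, the 4 group means of BDKRB1 fell in the order DMSO, 50 nM for 12 h, 50 nM for 24 h and 100 nM, and neighbours in that order overlapped. With 100 nM the difference from DMSO was -0.25 on day 8 and -0.19 on day 15 (-0.23 without DMSO replicate 1). The 3 rotenone samples lay below the 3 DMSO samples each time. Before the slide correction the day 8 samples overlapped, with 8.663 in 100 nM replicate 2 and 8.656 in DMSO replicate 3. Within the slides the day 8 difference was -0.36, -0.16 and -0.22.

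**Figure D2:**
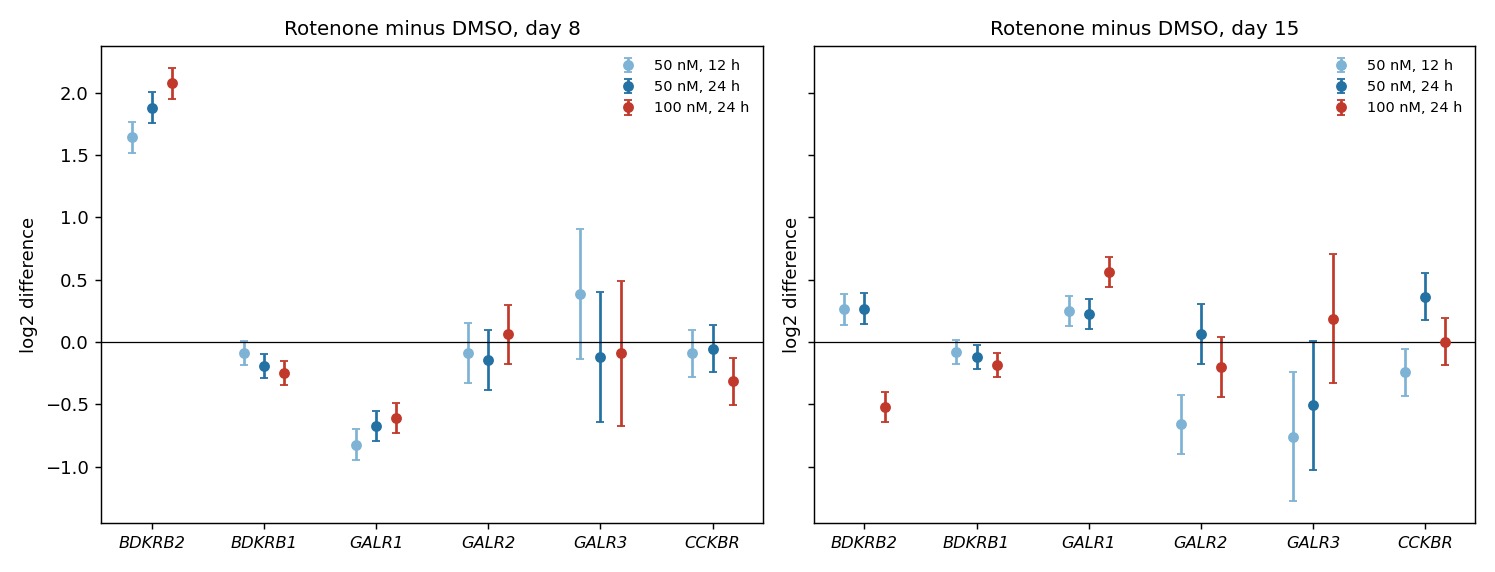
Log2 difference between each rotenone group and the DMSO group of the same day (vertical axis) for the 6 receptors in the fit, with day 8 on the left and day 15 on the right. Points are differences of group means and bars their standard errors; BDKRB2 reached 2.08 on day 8 and -0.52 on day 15 with 100 nM, and GALR1 went from -0.61 to 0.56.

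GALR1, coupled mainly to inhibitory G proteins, was lower with rotenone on day 8 and higher on day 15. On day 8 its log2 signal was 8.93, 8.83 and 8.62 in DMSO. It was 7.92, 7.98 and 8.01 after 50 nM for 12 h, and 8.25, 8.03 and 8.08 after 50 nM for 24 h. The 100 nM samples had 7.95, 8.43 and 8.17. All 9 rotenone samples were below the 3 DMSO samples. The difference from DMSO was -0.82 for 50 nM over 12 h, -0.68 for 50 nM over 24 h and -0.61 for 100 nM, with a standard error of 0.121. It was therefore not larger at the higher dose, and the 100 nM samples overlapped with the 50 nM 24 h samples. Within the slides the 100 nM difference was -1.01, -0.39 and -0.45.

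On day 15 GALR1 had log2 signals of 8.90, 9.24 and 9.33 in DMSO and 9.76, 9.68 and 9.72 after recovery from 100 nM, which were the 3 highest of all 24 values. The difference was 0.56, and 0.44 without DMSO replicate 1, the lowest day 15 sample. After recovery from 50 nM the 12 h samples (9.50, 9.41 and 9.31) overlapped with DMSO. The 24 h samples (9.43, 9.36 and 9.34) lay just above it. The differences from DMSO were 0.25 for 12 h and 0.22 for 24 h, or 0.12 and 0.09 without DMSO replicate 1. Over the 6 fitted receptors, 3 had arrays that did not overlap between 100 nM and DMSO on day 15, against 7.84% of all genes. These were BDKRB1, BDKRB2 and GALR1. BDKRB2 and GALR1 were selected on differences from DMSO, so this count was also partly fixed by the choice. The percentage of all genes called in this comparison was 0 (1532 genes had an unadjusted limma p below 0.05).

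GALR1 was higher on day 15 than on day 8 in both 50 nM groups. The difference was 1.26 in the 24 h group (2.39-fold, SE 0.121) and 1.43 in the 12 h group (2.7-fold), and the samples of the days did not overlap. In DMSO the difference was 0.36, with overlapping samples, and 0.49 without day 15 replicate 1. Within slides it was -0.06, 0.41 and 0.72. On day 8, 24 h and 12 h at 50 nM differed by 0.15 in GALR1 (SE 0.121), which was not tested.

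GALR2, the galanin receptor coupled to phospholipase C, was near background. Its log2 signal ranged from 4.04 to 5.47 over the 24 arrays, and its spot intensity from 44.5 to 91 against a local background of 23 to 34. It was well above background on 8 of 8 arrays of slide 1, 6 of 8 of slide 2 and 2 of 8 of slide 3. The 8 group means lay between 4.60 and 5.33, and all neighbours in their order overlapped. Day 15 minus day 8 was 0.28 in DMSO (adjusted p = 0.46, and 0.20 with adjusted p = 0.68 without day 15 replicate 1), 0.49 in the 50 nM 24 h group (adjusted p = 0.14) and -0.29 in the 50 nM 12 h group (adjusted p = 0.41), and none was called. With scaling to the 75th percentile in place of quantiles, the 50 nM 24 h difference was 0.72 and was called (adjusted p = 0.032).

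GALR3 gave a bright but uneven signal. On day 8 its log2 signal was 11.24, 9.91 and 11.11 in DMSO and 11.05, 11.98 and 10.28 with 100 nM. On day 15 it was 11.58, 10.59 and 9.93 in DMSO and 10.12, 12.49 and 10.06 after recovery from 100 nM. The spread within these 4 groups (SD 0.737 to 1.39) was wider than that within the 50 nM groups, where it was 0.0808 to 0.387. The value of 100 nM day 8 replicate 2 came from a spot flagged by the scanner software and was left out of the fit, which gave a difference of -0.09 from DMSO with a standard error of 0.581. Day 15 minus day 8 was -1.19 in the 50 nM 12 h group, with 11.11, 11.07 and 11.23 on day 8 and 10.06, 9.94 and 9.82 on day 15. These samples did not overlap, yet the difference did not pass the test in the fit of all 24 arrays (adjusted p = 0.098), and it was called when those 6 arrays alone were fitted (adjusted p = 0.0012). In the 50 nM 24 h group and in DMSO the differences were -0.44 (adjusted p = 0.59) and -0.05 (adjusted p = 0.96). Without day 15 replicate 1 the DMSO difference was -0.49 (adjusted p = 0.61).

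Of the cholecystokinin receptors, CCKAR was well above background on 1 array of day 15 DMSO and its log2 signal ranged from 2.39 to 4.35, so no difference was tested. CCKBR, the receptor common in brain, ranged from 4.33 to 5.41 and was well above background on 7 of 8 arrays of slide 1, 6 of 8 of slide 2 and 1 of 8 of slide 3. It was not well above background on any array of the 100 nM day 8 group, which had 4.64, 4.60 and 4.36 against 4.71, 5.01 and 4.83 in DMSO. The DMSO group, with 2 of 3 arrays well above background, was 1.25-fold higher in the main processing (SE 0.19 on the log2 scale). This size is uncertain so close to background. The difference of -0.32 ran from -0.94 with the processed signal to -0.11 with a normexp offset of 50. Day 15 minus day 8 was not called in DMSO (-0.20, adjusted p = 0.52, or -0.19 without day 15 replicate 1), in the 50 nM 24 h group (0.22, adjusted p = 0.45) or in the 50 nM 12 h group (-0.35, adjusted p = 0.19).

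**Figure D3:**
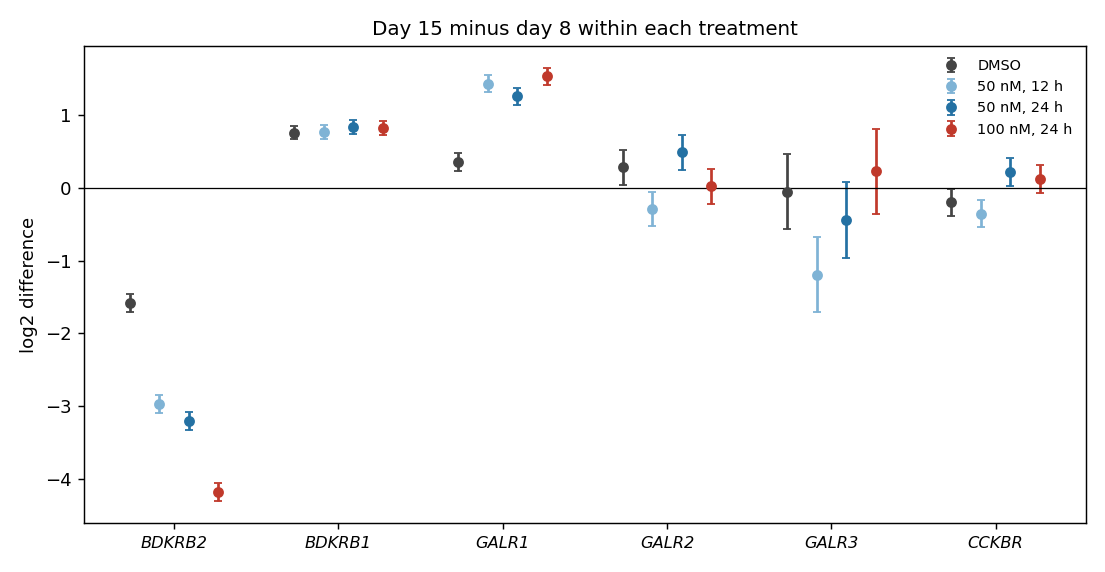
Log2 difference between day 15 and day 8 within each treatment (vertical axis) for the 6 receptors in the fit. Points are differences of group means and bars their standard errors; BDKRB2 was lower on day 15 in all 4 treatments, from -1.59 in DMSO to -4.19 with 100 nM, and BDKRB1 higher in all 4.

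Of the 4 fitted receptors that were not selected on their own rotenone values (BDKRB1, GALR2, GALR3 and CCKBR), 1 was called between day 15 and day 8 in each of 3 treatments, and it was BDKRB1 each time. This was so in DMSO, where 12.2% of all genes were called, in the 50 nM 24 h group, where 15.9% were, and in the 50 nM 12 h group, where 15.3% were. Between 24 h and 12 h at 50 nM on day 8, none of these 4 receptors was called, with 0.226% of all genes. The smallest adjusted p among the 4 was the 0.8 of BDKRB1.

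The ligands of these receptors come from 6 genes of a fixed list: KNG1 (kininogen, the bradykinin precursor), GAL (galanin), GALP (galanin-like peptide), SPX (spexin, a ligand of galanin receptors 2 and 3), CCK (cholecystokinin) and GAST (gastrin). All 6 passed the filter and only GAL was well above background on all 24 arrays. GAL and CCK were known from earlier results of these data when the list was written, so their values are not independent evidence.

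On day 8 GAL had log2 signals of 11.11, 10.67 and 10.87 in DMSO and 12.04, 11.87 and 11.86 with 100 nM for 24 h. It rose by 1.04 (SE 0.156, adjusted p = 0.00023). With 50 nM for 24 h (11.80, 11.96 and 11.84) it rose by 0.99 (adjusted p = 0.00051), and with 50 nM for 12 h (11.05, 11.39 and 11.46) the difference of 0.42 was not called (adjusted p = 0.15). By day 15 the DMSO samples were at 7.81, 8.19 and 8.21. GAL fell by 2.81 in DMSO between the days (adjusted p = 1.6e-10, and a difference of -2.68 without day 15 replicate 1), by 3.47 in the 50 nM 24 h group (adjusted p = 8.5e-12) and by 4.30 in the 100 nM group (adjusted p = 3.6e-13). After recovery from 100 nM, values of 7.88, 7.69 and 7.32 gave a difference of -0.44 from DMSO (adjusted p = 0.63). On day 8, GAL was thus higher with 24 h of rotenone while GALR1 was lower.

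CCK stood out from background on 1 of 3 arrays in each day 8 group and on 3 of 3 in each day 15 group. In DMSO it was 4.91, 4.81 and 4.74 on day 8 and 6.57, 7.11 and 7.27 on day 15, a rise of 2.16 (SE 0.246, adjusted p = 2.4e-06). With 2 of the 3 day 8 arrays not well above background, the size of this rise ran from 1.18 to 3.85 over the settings, and it was called under each. Without day 15 replicate 1 it was 2.37. The day 15 samples after recovery from 100 nM had 5.89, 6.48 and 5.28, which were below every DMSO sample. Their difference of -1.10 was not called (adjusted p = 0.28). KNG1, GALP, SPX and GAST stayed between group means of 3.04 and 4.91, and none was called in any comparison of rotenone with DMSO or of the days in DMSO.

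**Figure D4:**
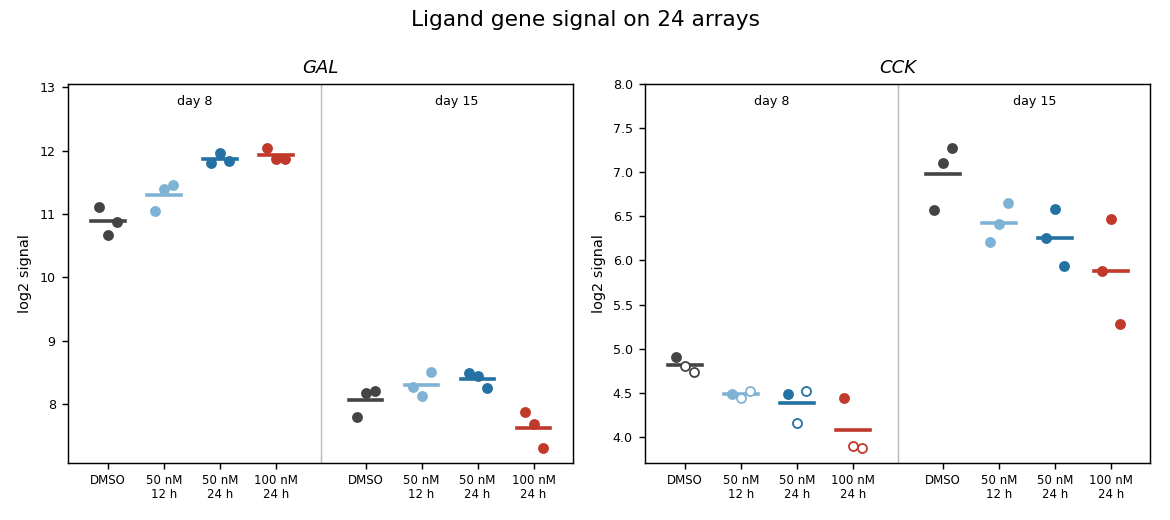
Log2 signal (vertical axes, one scale per gene) of the galanin gene GAL and the cholecystokinin gene CCK on each of the 24 arrays, by group. Points are single arrays, filled where well above background, and bars are means of 3 arrays; GAL lay between 10.67 and 12.04 on day 8 and between 7.32 and 8.51 on day 15, and CCK was higher on day 15.

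Among the 16 tested genes of peptide processing and degradation, 1 was called with 100 nM on day 8 and it rose, beside 3.45% of all genes called. This was KLK1, tissue kallikrein, which releases kinins from kininogen. It had a mean log2 signal of 7.39 ± 0.11 in DMSO and 8.31 ± 0.194 with 100 nM (SD, n = 3), a rise of 0.92 (adjusted p = 0.0038). With 50 nM for 24 h KLK1 rose by 0.91 (adjusted p = 0.0047), and with 50 nM for 12 h the difference was 0.43 (adjusted p = 0.24). On slides 2 and 3 alone, the 100 nM difference of KLK1 was 0.86 and was not called (adjusted p = 0.11). In DMSO KLK1 fell by 1.84 from day 8 to day 15 (adjusted p = 6.9e-07), so the kallikrein gene, GAL and BDKRB2 all had higher values on day 8 than on day 15. The median difference of the list with 100 nM on day 8 was -0.04, beside -0.02 over all genes. At 50 nM, PCSK1, a prohormone convertase, rose by 0.94 after 12 h (adjusted p = 0.004) and by 0.69 after 24 h (adjusted p = 0.023). PCSK1N, the precursor of its inhibitor, fell by 0.61 after 24 h (adjusted p = 0.03). PCSK1 and PCSK1N were named after their values were seen.

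Among the 41 tested G protein transducers and regulators, 2 were called with 100 nM on day 8, beside 3.45% of all genes. PRKCB, a protein kinase C downstream of phospholipase C, fell by 0.64 from 6.90 ± 0.137 to 6.26 ± 0.196 (SD, n = 3, adjusted p = 0.0096). Its call was lost without DMSO replicate 2, where it fell by 0.57, and without 100 nM replicate 1, where it fell by 0.53 (adjusted p = 0.066), and it was also not called without batch correction (adjusted p = 0.39). GNA14, a Gq family subunit named after its values were seen, rose by 0.89 (adjusted p = 0.0096) but was not well above background on any array of either group. With 50 nM for 12 h 1 of the 41 was called, the beta subunit GNB4, which rose by 0.65 (adjusted p = 0.0011). Between day 15 and day 8 in DMSO, 10 of the 41 rose and 4 fell, beside 12.2% of all genes called, and PRKCB rose by 2.08 (adjusted p = 5.8e-09). The list's median difference was 0.06 with 100 nM on day 8 and 0.17 between the days in DMSO, beside -0.02 and -0.04 over all genes.

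Among the 55 tested of 60 other peptide receptors, 2 were called with 100 nM on day 8 and both fell, a share near the 3.45% of all genes. MC1R, the melanocortin 1 receptor, had 9.11 ± 0.0891 in DMSO and 7.93 ± 0.202 with 100 nM (SD, n = 3), a fall by 1.19 (adjusted p = 6.4e-05). The gene lies beside the abundant tubulin gene TUBB3 and joint transcripts of the pair are known, so its signal is uncertain. NPY5R, a neuropeptide Y receptor, fell by 0.76 (adjusted p = 0.0035), and its difference on slides 2 and 3 alone was -0.68 (adjusted p = 0.3). After 50 nM for 12 h MC1R fell by 0.80 and NPY5R by 0.70, and after 24 h MC1R fell by 1.14 and NPY5R, with -0.56, was not called. The median over the list with 100 nM was -0.02, as over all genes. Of the 6 fitted bradykinin, galanin and cholecystokinin receptors 2 had values above DMSO with 100 nM, with a median difference of -0.17. On day 15 none of the 118 tested genes of the 4 lists was called in any rotenone group, where the percentage of all genes called was 0 in each. Unadjusted limma p-values below 0.05 were found for 14 of the 118 with 100 nM, 5 with 50 nM for 24 h and 6 with 50 nM for 12 h. Over all 21239 genes these counts were 1532, 697 and 737.

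Between day 15 and day 8 in DMSO, 3 of the 55 other peptide receptors rose and 2 fell, beside 12.2% of all genes called. These 5 were named after their values were seen. The neurotensin receptor NTSR1, known in midbrain dopamine neurons, fell by 4.05 (adjusted p = 4.3e-09) and the somatostatin receptor SSTR2 by 1.13 (adjusted p = 0.00014). The kisspeptin receptor KISS1R rose by 1.27 (adjusted p = 5.2e-06), the nociceptin receptor OPRL1 by 0.77 (adjusted p = 0.0034), and MC5R rose by 0.84 with 1 of 3 arrays above background on each day. The dopaminergic markers TH and SLC6A3 also differed between the days, by -2.95 and -2.07, and the part of such changes in those of the receptors was not tested.

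For each receptor with a whole group of arrays well above background, 15610 genes were ranked by the likeness of their pattern, as Pearson's r over the 8 group means. The 8 points share slides and days, so the r values are descriptions. For BDKRB2 they were GANC (r = 0.998), LCN15 (0.996) and GCFC2 (0.996). For BDKRB1 they were FZD8 (0.999), DNAJC6 (0.998) and TYRP1 (0.998). For GALR1 they were MYL5 (0.993), PLEKHF1 (0.992) and PCDHB13 (0.991). The best matches were lower for GALR2 (SHANK2-AS3, 0.955), CCKBR (LOC100129617, 0.947) and GALR3 (BMS1P2, 0.931).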

How the data were processed

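The deposited scanner files hold spot intensities from Agilent Feature Extraction, per the file headers 11.5.1.1 on slides 1 and 3 and 12.0.0.7 on slide 2. The deposited table of the authors holds log2 values normalized and batch-corrected by them, and was used as an alternative. In R 4.3.3 with limma 3.58.1, median spot intensities were corrected by normexp (offset 0), quantile-normalized and adjusted for slide 1 with ComBat, groups kept as covariates. A spot was kept where 3 or more arrays exceeded 1.1 times the 95th percentile of negative control spots (56182 of 58717 non-control spots), flagged values were dropped, and spots were averaged to probes and genes. Probes were named through RefSeq accessions (30275 of 50599). 1 limma fit of all 24 arrays gave all tests, with Benjamini-Hochberg adjustment over 21239 genes. The fit was tested on simulated data. The planned tests of BDKRB2 and GALR1 between the days are given as values only, since their day 8 values led to the choice of both.

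The members and lists were chosen with earlier results of these data known. All receptor probes, all ligand genes, and per other list up to 3 called genes in each direction with the largest change with 100 nM on day 8 and all arrays of a group well above background were named. The replicate number is the slide number. Before the slide correction, deviations of samples with the same number correlated in every pair (r 0.171 to 0.773). These samples share a slide, so the correlation cannot show whether the cultures were paired. The main fit held groups only, and a replicate block was an alternative. Alternatives were other signals, scalings, filters, batch treatments, subsets of arrays and each replicate left out. The number of arrays limits the precision. Array coordinates and probe sequences were not used here.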

Additional observations from a re-analysis of the deposited data

Results flagged for a closer look

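BDKRB2 and GALR1 with 100 nM for 24 h, and GALR1 with 50 nM for 24 h, had all 3 rotenone samples on one side of DMSO on day 8 and all 3 on the other side on day 15. For BDKRB2 with 100 nM the day 15 difference minus the day 8 difference was -2.60 on the log2 scale. For GALR1 it was 1.17 with 100 nM and 0.90 with 50 nM for 24 h, where the lowest rotenone sample of day 15 was at 9.34 and the highest DMSO sample at 9.33. Before the slide correction these 2 groups of day 15 overlapped, with differences of 0.56, 0.12 and 0 within the slides. In the fit the difference was 0.22, and 0.09 without DMSO replicate 1. These differences between the days were not tested, since they use the values that led to the choice of the 2 genes.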

How the results depend on the processing

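The direction of each recomputed BDKRB2 and GALR1 difference held under the 10 alternatives run besides leaving out samples. Differences not recomputed were those of BDKRB2 between the days with 100 nM and of GALR1 between 24 h and 12 h at 50 nM. The flagged differences between the days were also not recomputed. The size of the day 8 BDKRB2 difference moved with the signal. With the processed signal it was 2.22 for 100 nM, 2.04 for 50 nM over 24 h and 1.80 for 50 nM over 12 h, and with a normexp offset of 50 it was 1.90, 1.71 and 1.49. With a replicate block in place of ComBat, 66 results were recomputed and the 100 nM difference of BDKRB2 was 2.07. No tested gene among them changed its call, and no untested difference moved beyond its spread. Counts of calls shifted, from 5 to 7 for the other peptide receptors between the days in DMSO. Over all genes with 100 nM on day 8 the count went from 733 to 728. The calls among the other 5 receptors numbered 3, and 5 with the processed signal, where GALR2 was called between the days in DMSO (1.21, adjusted p = 0.038) and with 50 nM for 24 h (1.64, adjusted p = 0.005). The genes called in the 4 lists with 100 nM on day 8 numbered 6, and 3 each with an offset of 50, without batch correction and with slides 2 and 3 only, KLK1 not being called in the last 2 (adjusted p = 0.073 and 0.11). Over all genes, 733 calls with 100 nM on day 8 ranged from 260 to 981 over the settings. With single samples left out, BDKRB2 with 100 nM on day 8 stayed between 2 and 2.16 and GALR1 between -0.74 and -0.50. The causes were not tested. Signals of GALR2, CCKBR and CCKAR close to background limit what could be seen for these 3.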
